A study of Homo sapiens with 14 samples.

Results

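HepG2 cells on transwells, inserts whose floor is a porous membrane, were either compressed under a weight or left uncompressed, and RNA of both states was sequenced. HepG2 is an established human line that the labels call a hepatoblastoma of wild-type genotype. The comparison holds 2 libraries of cells under the weight (replicates 1 and 2) and 2 libraries of uncompressed cells (replicates 1 and 2), out of 14 libraries in the series. Every gene with a level of at least 1 CPM, a count scaled to its library's total and not to gene length, in 2 of these 4 libraries was tested, which kept 13389 of the 56479 genes in the table, and the spread was taken from these libraries alone. The series asks how liver cancer cells adapt to compression, by solutes or by weights. Its most similar experiment is the same comparison in Hep3B, a line that the labels call a hepatocellular carcinoma, likewise wild type, with 2 libraries under the weight and 2 uncompressed. Both lines were on the membranes without added polyethylene glycol, and neither the mass of the weight nor how long it rested on the cells could be read from the labels. The labels number the libraries of a group but do not describe separate cultures, so p-values measure the spread between these samples, which may be technical.

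Load on a cell is known to reach the nucleus by way of integrins, the actin cytoskeleton and the nuclear envelope. It is also known to act through the coactivators YAP and TAZ, which bind TEAD transcription factors and raise genes of the matrix, adhesion and growth factor signalling. Liver cells make most serum proteins and clotting factors, run bile acid, cholesterol and drug metabolism, and pass their secreted proteins through a large endoplasmic reticulum (ER).

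The weighted libraries held 26487223 and 23990601 counts, against 25356514 and 27011794 counts in the uncompressed ones, so a gene at 1 CPM rested on about 25 counts per library. All 21 of the liver line markers passed the level filter, among them albumin (ALB) at 30374 and 31398 CPM under the weight, against 37879.9 and 38470.4 CPM uncompressed. Among 10 fibroblast markers 8 stayed under 1 CPM in all 4 libraries, with DCN, THY1 and POSTN at 0 counts. Of the 2 tested, ACTA2, or smooth muscle actin, was called higher at 32.6 and 33.8 CPM under the weight, against 26.8 and 24.4 CPM uncompressed (0.38 ± 0.07), and the receptor PDGFRB lower at 9.73 and 12.2 CPM, against 23.8 and 22.8 CPM (-1.09 ± 0.10). The summed level of that list was 43.1 and 46.9 CPM under the weight, against 50.9 and 47.5 CPM uncompressed. Among 9 blood cell markers 5 stayed under 1 CPM, with PTPRC and CD3E at 0 counts, while LYZ, which encodes lysozyme, stood at 2487 and 2397 CPM under the weight, against 4263 and 4365 CPM uncompressed. The summed level of that list was 2491 and 2403 CPM under the weight, against 4267 and 4369 CPM uncompressed. Endothelial markers summed to 11.1 and 10.8 CPM under the weight, against 6.28 and 6.38 CPM uncompressed, with EMCN at 0 counts. Bile duct markers summed to 1166 and 1114 CPM under the weight, against 832 and 804 CPM uncompressed, and KRT19 led them. The part of these cell markers in the results was not tested. Transcripts encoded in mitochondria took 3.02% and 1.72% of counts under the weight, against 2.73% and 0.808% uncompressed, so replicates 1 and 2 of the same state differed more than the states did, and 0 of 13 such genes passed the test in either direction.

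Under the weight, HepG2 cells had less RNA of genes for copying DNA and dividing, for making cholesterol, for ER protein entry and for breaking down amino acids. They had more RNA of genes for adhesion, for remodelling the matrix, for growth factor signalling through the TGF-beta, EGF and IGF families, and for clotting and complement proteins. In all, 6612 of 13389 genes (49.4%) passed an adjusted p of 0.05 in edgeR's quasi-likelihood test, 3327 of them higher (24.8%) and 3285 lower (24.5%). The higher and lower shares over all genes are the background for every list count that follows. Most changes were small. Of the genes called, 3795 (57.4%) moved by under 0.5 on the log2 scale, and the median absolute change of the called genes was 0.434. A change of at least 1 log2 was met by 933 genes (6.97%), of which 752 were higher and 181 lower. Both weighted libraries lay beyond both uncompressed ones in every called gene, but so they did in 75.1% of all genes tested. The median log2 fold change of all genes was 0.000918. In these bulk libraries fewer cells of a kind and less RNA per cell cannot be told apart.

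The larger rises and the larger falls sat at different uncompressed levels. Part of this is built in, because the uncompressed level is the base of the fold change that selects them. The 752 genes that rose by at least 1 log2 had a median of 1.46 CPM in uncompressed cells, and 549 of them averaged under 5 CPM there. The 181 genes that fell by at least 1 log2 had an uncompressed median of 8.45 CPM, and all genes tested had one of 19.8 CPM. The level filter was passed through the weighted libraries alone by 585 genes, of which 389 were called higher, and through the uncompressed libraries alone by 217 genes, of which 76 were called lower. The filter thus favoured a change in that direction without requiring one. These genes are included in the counts above and, where they are members, in the list counts that follow. The counts differed between fits, and the cause was not tested. With all 14 libraries of the series in 1 fit, 1836 of these genes were called, and without uncompressed replicate 1 or uncompressed replicate 2 the counts were 3968 and 3984.

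**Figure D1:**
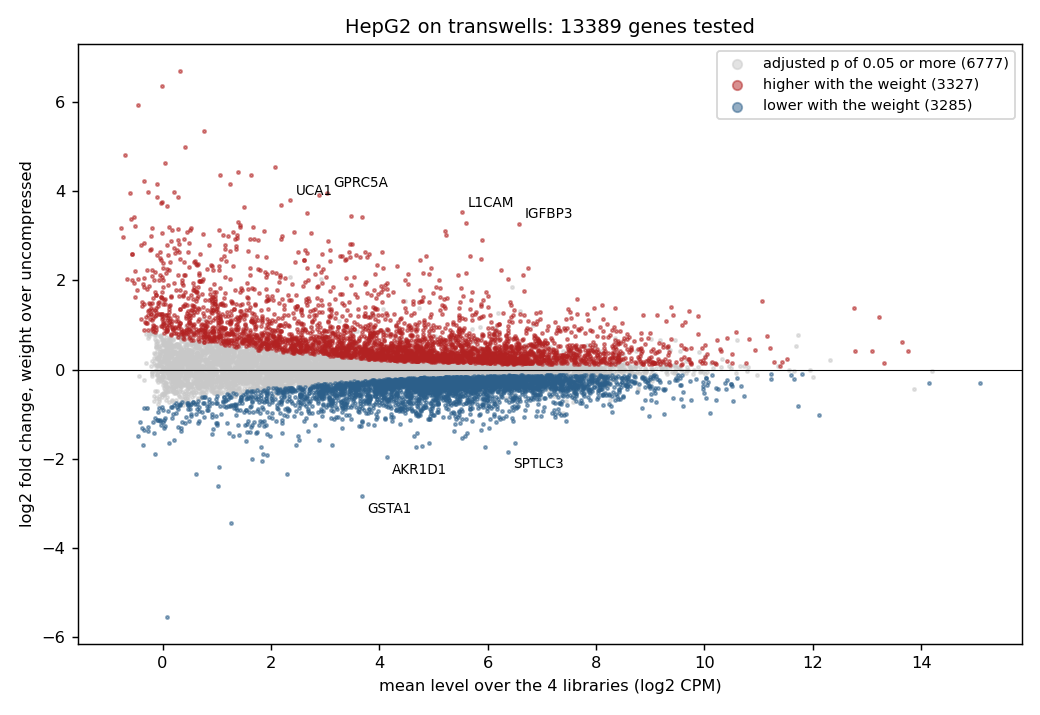
Each point is 1 of 13389 genes tested, with its mean level over the 4 HepG2 transwell libraries (log2 CPM) on the x axis and its log2 fold change, weight over uncompressed, on the y axis; red genes were called higher (3327), blue genes lower (3285) and grey genes neither. Rises of 3 log2 or more sit mostly at low levels, and GSTA1, AKR1D1 and SPTLC3 lead the falls among genes of at least 5 CPM.

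The 12 largest rises among called genes averaging at least 5 CPM ran from 3.06 to 3.96 log2. GPRC5A (ENSG00000013588, chromosome 12, 12890782 to 12917937, GRCh38), an orphan receptor inducible by retinoic acid, had 14.4 and 16.6 CPM under the weight, against 1.18 and 0.806 CPM uncompressed. That is a log2 fold change of 3.96 ± 0.18 (SE, adjusted p = 1.17e-08). MYOF (ENSG00000138119, chromosome 10, 93306429 to 93482317), or myoferlin, a membrane fusion and repair protein, had 13.3 and 14.3 CPM under the weight, against 1.10 and 0.733 CPM uncompressed (3.92 ± 0.18, adjusted p = 1.21e-08). In both genes the pairs of libraries stood more than 10-fold apart and uncompressed cells were near 1 CPM. Uncompressed replicate 2 was under 1 CPM in both, so the uncompressed pair alone would not have passed the level filter. UCA1 (ENSG00000214049, chromosome 19, 15828206 to 15836326), a long noncoding RNA first described in bladder cancer, had 9.35 and 9.72 CPM, against 0.746 and 0.623 CPM (3.79 ± 0.19), and passed the level filter through the weighted libraries alone. L1CAM (ENSG00000198910, chromosome X, 153861514 to 153886174), an adhesion molecule best known from axons, had 88.4 and 80.9 CPM, against 7.19 and 7.44 CPM (3.53 ± 0.08, adjusted p = 2.06e-10). L1CAM was thus well above the filter in both states. INHBB, which encodes the subunit of activin B, had 21.3 and 19.4 CPM under the weight and 2.16 and 1.61 CPM without it (3.44 ± 0.14). The remaining leaders were the keratin gene KRT80 (3.51), the collagen cross-linking enzyme LOXL2 (3.43), IGFBP3 (3.27), the junction gene ESAM (3.08), the laminin receptor subunit ITGA3 (3.06), and a pair of cytochromes. CYP1A1 (ENSG00000140465, chromosome 15, 74719542 to 74725610), the classic target of the aryl hydrocarbon receptor, had 85.3 and 91.3 CPM, against 9.70 and 8.46 CPM (3.28 ± 0.08, adjusted p = 2.06e-10). CYP24A1 (ENSG00000019186, chromosome 20, 54153449 to 54173973), which breaks down active vitamin D, had 66.4 and 65.9 CPM, against 7.97 and 7.40 CPM (3.11 ± 0.07, adjusted p = 2.06e-10). Of these 12 genes, 7 averaged under 2 CPM in uncompressed cells. Uncompressed replicate 2 stood at 0.989 CPM in KRT80 and ESAM, so their uncompressed pairs alone would not have passed the level filter.

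The 12 largest falls by the same rule ran from -2.84 to -1.57 log2 and included enzymes of liver metabolism. GSTA1 (ENSG00000243955, chromosome 6, 52791664 to 52803910), a glutathione transferase abundant in hepatocytes, had 3.34 and 2.89 CPM under the weight, against 21.5 and 23.3 CPM uncompressed (-2.84 ± 0.12, adjusted p = 6.40e-09). Its near-identical neighbour GSTA2 had 0.418 and 0.382 CPM, against 4.12 and 4.65 CPM (-3.44 ± 0.26), and passed the level filter through the uncompressed libraries alone. Reads of GSTA1 and GSTA2 may have been split between them by the counting. AKR1D1 (ENSG00000122787, chromosome 7, 138002324 to 138117986), the steroid beta-reductase of bile acid synthesis, had 6.04 and 8.36 CPM, against 28.4 and 27.6 CPM (-1.97 ± 0.12, adjusted p = 7.20e-07). Neither enzyme showed any overlap between states, as the rule for naming them requires. SPTLC3 (ENSG00000172296, chromosome 20, 13008979 to 13169103), a subunit of the enzyme that starts sphingolipid synthesis, had 34.2 and 37.7 CPM, against 131 and 127 CPM (-1.85 ± 0.06, adjusted p = 1.30e-09). SGK1 (ENSG00000118515, chromosome 6, 134169246 to 134318112), a kinase known to respond to cell volume and glucocorticoids, had 30.5 and 25.9 CPM, against 96.6 and 92.8 CPM (-1.75 ± 0.07, adjusted p = 1.34e-08). Both had been at about 90 CPM or more in uncompressed cells. DDC, which makes dopamine and serotonin from amino acids, changed by -1.75 log2, ADH4, a liver alcohol dehydrogenase, by -1.64, and the actin-binding COTL1 by -1.71. MAP2K6, a kinase upstream of the p38 stress kinases, had 3.72 and 4.62 CPM, against 13.7 and 13.04 CPM (-1.69 ± 0.13). The others were DPEP1 (-1.70), MIXL1 (-1.64), AGR2 (-1.58) and ANGPTL1 (-1.57), all called lower.

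**Figure D2:**
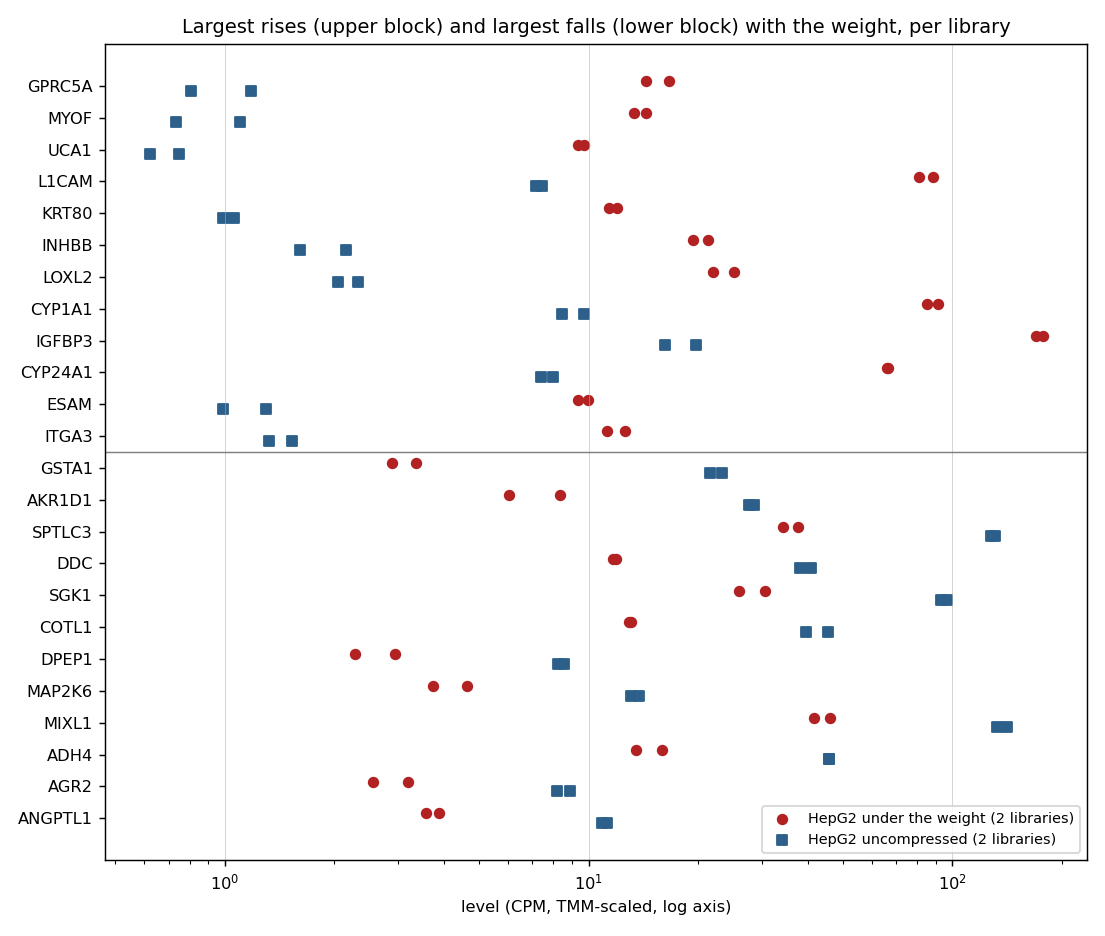
Levels in CPM (log axis) of the 12 largest rises (upper block) and 12 largest falls (lower block) among called genes of at least 5 CPM, with each library as a point: red circles for HepG2 under the weight (2 libraries) and blue squares for uncompressed HepG2 (2 libraries). Replicates of a state nearly coincide, and in each of the 24 genes the states do not overlap, as the rule for naming them requires.

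Genes that copy, repair and segregate DNA were lower almost as a whole. Of 43 genes of the mitotic machinery 42 were called lower, with a median log2 fold change of -0.89. Of 44 DNA replication genes 43 were lower (median -0.68), and of 24 DNA repair genes 22 were lower (median -0.74), beside 24.5% of all genes. None of these members was called higher. Most falls were of moderate size, and 12 mitotic, 3 replication and 4 repair genes reached 1 log2. CDC6, which loads the replicative helicase onto origins, had 22.9 and 24.3 CPM under the weight, against 69.7 and 66.7 CPM uncompressed (-1.53 ± 0.06, adjusted p = 6.40e-09). BIRC5, or survivin, a mitotic protein that also blocks caspases, had 39.2 and 36.1 CPM, against 94.1 and 91.9 CPM (-1.30 ± 0.06, adjusted p = 1.24e-08). RAD54L, a motor protein of homologous recombination, had 7.79 and 6.79 CPM, against 17.7 and 17.2 CPM (-1.26 ± 0.11). In each gene the states were at least 2-fold apart. PLK1, a kinase of mitotic entry and exit, had 56.9 and 54.6 CPM, against 115 and 121 CPM (-1.08 ± 0.05). The proliferation marker MKI67 did not pass, at 93.2 and 135 CPM under the weight and 193 and 252 CPM uncompressed (-0.96 ± 0.32, adjusted p = 0.141). The gap between replicates was wide in both states, with replicate 2 the higher in each. DESeq2 called MKI67 lower (adjusted p = 0.0123). So did edgeR with a replicate block (adjusted p = 1.23e-07) and with 10 transwell libraries in the fit (adjusted p = 0.0244). The remaining fits did not call it. E2F1, a transcription factor that drives S phase genes, had 17.6 and 16.8 CPM, against 33.6 and 33.7 CPM (-0.96 ± 0.07), and 12 of 17 members of the E2F and RB families were lower.

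Promoter sequence of these genes could be read from RefSeq (GRCh38.p14), which matched 9879 of the tested genes by symbol. The letters TTTGAA of the cell cycle homology region (CHR), known from promoters of mitotic genes, were searched on both strands in the 250 bases before each start. They stood in 19 of 37 matched mitotic genes (51.4%), in 1 of 37 replication genes (2.7%), in 8.42% of all tested genes and in 13.3% of all 35116 promoters in the table. The E2F letters TTTCGCGC or TTTGGCGC, which can overlap each other, stood in 5 of 37 replication genes (13.5%), in 0 of 37 mitotic genes, in 1.71% of tested genes and in 0.968% of all promoters. A match is only a run of letters in this window. The upstream sequences of PLK1 and CCNB2, which carry CHR letters at the same distance from the start, and of MCM6, with the E2F letters, are shown 5′ to 3′ on the strand of the gene, with the matches in capitals. PLK1 lies at chr16:23678639-23678888 on the plus strand, CCNB2 at chr15:59104896-59105145 on the plus strand and MCM6 at chr2:135876444-135876693 on the minus strand.
PLK1: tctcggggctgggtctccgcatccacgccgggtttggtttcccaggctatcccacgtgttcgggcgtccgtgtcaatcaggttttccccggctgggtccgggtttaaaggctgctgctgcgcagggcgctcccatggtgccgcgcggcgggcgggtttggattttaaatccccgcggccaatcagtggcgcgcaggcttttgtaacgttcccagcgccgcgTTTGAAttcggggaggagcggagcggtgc
CCNB2: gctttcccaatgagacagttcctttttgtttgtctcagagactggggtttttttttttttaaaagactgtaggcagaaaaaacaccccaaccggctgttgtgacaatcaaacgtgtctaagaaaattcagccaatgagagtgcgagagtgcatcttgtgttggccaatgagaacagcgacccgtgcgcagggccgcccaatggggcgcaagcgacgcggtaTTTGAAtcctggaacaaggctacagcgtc
MCM6: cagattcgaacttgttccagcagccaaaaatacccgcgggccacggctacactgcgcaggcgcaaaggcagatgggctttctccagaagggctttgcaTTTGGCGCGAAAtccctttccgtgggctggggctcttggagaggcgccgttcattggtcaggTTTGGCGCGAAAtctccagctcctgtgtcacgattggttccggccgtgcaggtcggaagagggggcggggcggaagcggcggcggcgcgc
In PLK1 and CCNB2 the match began 29 bases before the start. In MCM6 the E2F letters occurred in 2 stretches, each matching on both strands with overlap. CCNB2, a mitotic cyclin, had 28.5 and 28.4 CPM under the weight, against 58.5 and 59.8 CPM uncompressed (-1.06 ± 0.06). MCM6, a subunit of the replicative helicase, had 30.3 and 30.2 CPM, against 47.8 and 48.4 CPM (-0.67 ± 0.06). Both were chosen for their promoters after their values had been seen.

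Some inhibitors and cyclin D1 moved the other way, while the inhibitors CDKN2C (-0.88 ± 0.12) and CDKN1B (-0.22 ± 0.06) were called lower. CDKN1A, the p21 inhibitor that p53 raises, had 63.5 and 61.1 CPM under the weight, against 26.5 and 26.8 CPM uncompressed (1.23 ± 0.06, adjusted p = 2.06e-08). CDKN2B, an inhibitor of CDK4 and CDK6 known to respond to TGF-beta, had 7.56 and 7.89 CPM, against 2.67 and 2.56 CPM (1.56 ± 0.15). CCND1, or cyclin D1, which opens G1 phase, had 415 and 401 CPM, against 218 and 220.1 CPM (0.90 ± 0.04). CDKN1A, CDKN2B and CCND1 were clear of overlap, as was every called gene. The list of inhibitors, cyclins and CDKs split evenly, with 5 of 14 higher and 5 lower, beside 24.8% and 24.5% of all genes. Of 22 p53 targets 12 were higher and 2 lower (median 0.20). Among them RRM2B, a ribonucleotide reductase subunit for repair, had 101 and 100.2 CPM, against 63.7 and 62.0 CPM (0.68 ± 0.05). MDM2, which p53 also raises, was called lower by a small margin (-0.14 ± 0.05). That call did not hold in 3 of the 4 fits that leave out 1 library, those without weight replicate 1, uncompressed replicate 1 or uncompressed replicate 2 (adjusted p 0.105, 0.272 and 0.124). Replication-dependent histone genes passed the filter in only 9 of 43 cases, and 8 of those were higher, among them H4C8 (1.61), which passed through the weighted libraries alone, H2BC5 (1.51) and H2AC6 (1.29). These genes have near-identical copies between which reads may be split.

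In the TGF-beta family of ligands, receptors and SMADs 11 of 18 members were higher and 2 lower (median 0.38). TGFB1 itself had 58.5 and 59.7 CPM under the weight, against 32.0 and 32.0 CPM uncompressed (0.88 ± 0.06, adjusted p = 2.47e-07), a rise that did not pass with all 14 libraries in the fit (adjusted p = 0.116). LTBP2, of the family named for binding latent TGF-beta, had 10.2 and 10.6 CPM, against 1.85 and 1.91 CPM (2.47 ± 0.15). SMAD7, the inhibitory SMAD, had 19.99 and 16.4 CPM, against 11.3 and 10.3 CPM (0.76 ± 0.11). TGFB1, LTBP2 and SMAD7 were thus higher together. Genes known to respond to TGF-beta were higher in 17 of 19 cases, with a median of 0.79, beside 24.8% of all genes. IGFBP3, which binds insulin-like growth factors, was their leader at 177 and 169.5 CPM, against 19.8 and 16.2 CPM (3.27 ± 0.08, adjusted p = 1.17e-08). CCN2, a further member, was called lower at 849 and 868 CPM, against 989 and 993 CPM (-0.21 ± 0.04), a fall that did not pass without uncompressed replicate 1 (adjusted p = 0.0534) or uncompressed replicate 2 (adjusted p = 0.0507). In the BMP pathway 10 of 15 were higher and 2 lower. The lower pair were FST, or follistatin, which binds activins, at 244 and 245 CPM, against 362 and 362 CPM (-0.57 ± 0.04), and the BMP antagonist GREM1 at 0.342 and 0.552 CPM, against 1.22 and 1.06 CPM (-1.36 ± 0.35), which passed the level filter through the uncompressed libraries alone. GREM1 did not pass without weight replicate 1 or uncompressed replicate 1 (adjusted p 0.0507 and 0.0701). ID2, an inhibitor of helix-loop-helix factors that BMPs induce, had 279.7 and 252 CPM, against 151 and 135 CPM (0.89 ± 0.07). HAMP, the iron hormone hepcidin, also BMP-driven in liver, had 11.2 and 10.1 CPM, against 4.28 and 3.55 CPM (1.44 ± 0.14). HAMP did not pass with all 14 libraries in the fit (adjusted p = 0.122).

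The EGF, IGF and Wnt families showed both ligand and feedback genes moving. Of 9 tested members of the EGF receptor family, its ligands and related receptors 8 were higher and none lower. AREG, an EGF receptor ligand, had 19.3 and 14.6 CPM under the weight, against 3.34 and 2.45 CPM uncompressed (2.56 ± 0.19, adjusted p = 8.29e-06). EGFR had 80.7 and 96.9 CPM, against 44.2 and 49.3 CPM (0.92 ± 0.10), and AXL, a receptor kinase for GAS6, had 32.7 and 34.0 CPM, against 6.52 and 6.78 CPM (2.33 ± 0.08). Receptor and ligand were therefore both above their uncompressed levels. In the IGF axis 7 of 11 were higher and 1 lower, beside 24.8% and 24.5% of all genes tested. IGF2, a growth factor of fetal liver, had the highest CPM of them at 12005 and 14484 CPM, against 5836 and 5888 CPM (1.18 ± 0.12, adjusted p = 0.0146), but did not pass with no filter beyond 1 count (adjusted p = 0.0586). IGFBP2 had 17.8 and 19.8 CPM, against 4.71 and 4.14 CPM (2.08 ± 0.12). Among Wnt feedback genes and liver targets of beta-catenin 8 of 15 were higher and 3 lower. NOTUM, a secreted Wnt inactivator, had 241 and 241 CPM, against 107 and 112 CPM (1.14 ± 0.05). AXIN2, a feedback inhibitor of beta-catenin, had 108 and 89.4 CPM, against 49.8 and 47.0 CPM (1.03 ± 0.09). The secreted Wnt antagonist DKK1 was lower, at 26.7 and 23.9 CPM, against 71.7 and 70.1 CPM (-1.48 ± 0.07, adjusted p = 1.17e-08). DKK4, of the same family, had 2 counts over both weighted libraries, against 110 over both uncompressed ones, a ratio of uncompressed to weighted of 52 (exact 95% interval 14.1 to 435, counting error only).

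Of 21 AP-1 and immediate early genes 13 were higher and 3 lower (median 0.64), beside 24.8% and 24.5% of all genes. JUN, a subunit of AP-1, had 83.3 and 74.7 CPM under the weight, against 36.6 and 34.5 CPM uncompressed (1.15 ± 0.07, adjusted p = 8.14e-08). FOSL2, another AP-1 subunit, had 127 and 130.1 CPM, against 53.4 and 48.3 CPM (1.34 ± 0.06). MYC had 152 and 151 CPM, against 149 and 145 CPM (0.04 ± 0.04, adjusted p = 0.479), and did not pass. IER3, an early gene that acts on cell survival, was called lower at 124 and 105 CPM, against 148 and 135 CPM (-0.30 ± 0.09, adjusted p = 0.0425). That call did not hold without uncompressed replicate 1 (adjusted p = 0.166), and the log2 change was -0.19 without weight replicate 2. Of 18 MAPK phosphatases and Sprouty feedback genes 8 were higher and 6 lower, with DUSP8 (1.29) and DUSP5 (1.30) among the rises. IL11, a cytokine of the IL6 family, had 9.46 and 8.87 CPM, against 1.96 and 1.50 CPM (2.41 ± 0.17), and CXCL8, a neutrophil chemokine, had 6.96 and 7.59 CPM, against 1.73 and 1.72 CPM (2.07 ± 0.17). Both started below 2 CPM. Of the chemokine and NF-kB feedback list 6 of 12 were higher and 3 lower, and CCL20 was among the lower ones at 378 and 368 CPM, against 473 and 447 CPM (-0.30 ± 0.04).

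YAP and TEAD targets were higher in 13 of 19 cases and lower in 2 (median 0.48), beside 24.8% and 24.5% of all genes. ANKRD1, a muscle ankyrin repeat protein and a standard YAP readout, had 85.4 and 76.2 CPM under the weight, against 23.9 and 24.7 CPM uncompressed (1.73 ± 0.07, adjusted p = 5.33e-09). CCN1, a matricellular protein, had 27.7 and 24.8 CPM, against 13.8 and 12.6 CPM (0.99 ± 0.09). CCN2, the sister gene of CCN1, went down as given above, so these 3 standard readouts did not share a direction. YAP1 RNA had 195 and 201 CPM, against 204 and 204 CPM (-0.05 ± 0.04, adjusted p = 0.406), and WWTR1, which encodes TAZ, had 197 and 187 CPM, against 162 and 151 CPM (0.29 ± 0.05). AMOTL2, an angiomotin that holds YAP back and is itself a target, had 19.3 and 16.3 CPM, against 10.5 and 11.5 CPM (0.70 ± 0.11). The TEAD letters CATTCC stood in 4 of 12 matched targets (33.3%) in the 250 bases upstream, beside 9.31% of tested genes and 11.9% of all promoters. ANKRD1 held 2 matches and CCN2 held 3. The upstream sequence of ANKRD1 (GRCh38.p14, chr10:90921088-90921337, minus strand, shown on the strand of the gene) carries both matches as the reverse complement, in capitals.
ANKRD1: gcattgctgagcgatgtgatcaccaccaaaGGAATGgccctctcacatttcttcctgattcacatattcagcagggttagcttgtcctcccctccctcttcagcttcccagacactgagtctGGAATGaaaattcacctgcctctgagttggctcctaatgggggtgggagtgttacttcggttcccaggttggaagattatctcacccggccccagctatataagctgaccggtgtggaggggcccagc
The letters TGANTCA of AP-1 stood in 2 of the 12 (16.7%), beside 3.68% of tested genes and 6.57% of all promoters.

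Of 21 collagen and collagen-processing genes 14 were higher and 2 lower (median 0.59), beside 24.8% and 24.5% of all genes. LOXL2 (ENSG00000134013, chromosome 8, 23297189 to 23425328), which cross-links collagen, had 25.05 and 21.9 CPM under the weight, against 2.32 and 2.05 CPM uncompressed (3.43 ± 0.13, adjusted p = 3.71e-09). LOXL4 had 83.0 and 90.3 CPM, against 31.3 and 31.4 CPM (1.47 ± 0.06). COL18A1, a basement membrane collagen, had 334 and 310.4 CPM, against 139 and 133 CPM (1.24 ± 0.05). Both enzymes had larger log2 fold changes than this collagen, a difference that was not tested. Of 19 tested laminins and integrins 13 were higher and none lower, and 7 more were not tested. ITGA3 had 11.2 and 12.6 CPM, against 1.53 and 1.32 CPM (3.06 ± 0.16), and ITGA1, a collagen receptor subunit, had 165 and 169 CPM, against 70.2 and 68.2 CPM (1.27 ± 0.05). ITGB1, the shared beta subunit, had 708 and 669 CPM, against 461 and 446 CPM (0.60 ± 0.04). LAMB3, a laminin chain, had 72 counts over both weighted libraries, against 1 over both uncompressed ones, a ratio of 76.2 (exact 95% interval 13.2 to 3050, counting error only). LAMB3 passed the level filter through the weighted libraries alone. TGFBI, a matrix protein that binds integrins, had 793 and 763 CPM, against 330.2 and 334 CPM (1.23 ± 0.04), and fibronectin (FN1) did not pass at 17028 and 19953 CPM, against 17478 and 20292 CPM (-0.03 ± 0.15, adjusted p = 0.893). Of 20 extracellular proteases and inhibitors 17 were higher and none lower. SERPINE2, a protease inhibitor, had 181 and 172 CPM, against 38.9 and 34.2 CPM (2.27 ± 0.07, adjusted p = 9.82e-10), TIMP2 had 96.4 and 99.3 CPM, against 30.4 and 32.3 CPM (1.64 ± 0.06), and the lysosomal protease CTSB had 1054 and 1098 CPM, against 504 and 519 CPM (1.07 ± 0.04). Inhibitors and proteases therefore rose side by side.

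Cytoskeletal and surface genes followed, with large rises in a few members and no call for others such as ACTB and ANXA2. Of 41 actin and contractility genes 21 were higher and 5 lower (median 0.23), beside 24.8% and 24.5% of all genes. TAGLN2, an actin bundler, had 29.2 and 28.1 CPM under the weight, against 5.03 and 4.18 CPM uncompressed (2.64 ± 0.10, adjusted p = 4.63e-09). MSN, or moesin, which ties actin to the membrane, had 4.45 and 4.50 CPM, against 0.236 and 0.256 CPM (4.16 ± 0.28), and passed the level filter through the weighted libraries alone. Beta-actin (ACTB) had 1731 and 1749 CPM, against 1794 and 1778 CPM (-0.04 ± 0.04, adjusted p = 0.405), and did not pass. All 5 tested keratins were higher, from KRT18 (0.13) and KRT8 (0.19), the pair typical of liver cells, to KRT80. The other 6 keratins were not tested, and the uncompressed pair of KRT80 alone would not have passed the level filter. Without uncompressed replicate 1 or 2, KRT18 (adjusted p 0.134 and 0.21) and KRT8 (adjusted p 0.0818 and 0.0709) did not pass. KRT19, the bile duct keratin, was at 161 and 154 CPM, against 46.2 and 47.1 CPM (1.76 ± 0.05, adjusted p = 6.40e-10). KRT23 had 67.8 and 65.4 CPM, against 24.0 and 22.5 CPM (1.52 ± 0.06). Of 9 S100 calcium-binding proteins 8 were higher, S100A11 at 22.9 and 23.8 CPM, against 4.08 and 4.07 CPM (2.52 ± 0.10). Of the caveolae, annexin and membrane repair list 9 of 14 were higher and 2 lower. ANXA3 had 18.5 and 21.1 CPM, against 3.02 and 2.60 CPM (2.82 ± 0.13), and ANXA1 had 122 counts over both weighted libraries, against 1 over both uncompressed ones, a ratio of 129 (exact 95% interval 22.7 to 5140). ANXA1 passed the level filter through the weighted libraries alone. ANXA2 had 170.2 and 161 CPM, against 172 and 166 CPM (-0.03 ± 0.05, adjusted p = 0.681), and did not pass. Of 24 epithelial junction genes 13 were higher and 3 lower. CDH1, or E-cadherin, had 46.5 and 58.9 CPM, against 30.0 and 31.7 CPM (0.77 ± 0.12, adjusted p = 0.00273), and CLDN6, a tight junction protein of fetal epithelia, had 30.6 and 28.1 CPM, against 8.80 and 8.68 CPM (1.75 ± 0.09).

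At the nuclear envelope 3 of 15 genes were higher and 8 lower. LMNB1, a B-type lamin, had 62.4 and 63.1 CPM under the weight, against 113 and 112 CPM uncompressed (-0.84 ± 0.05, adjusted p = 8.84e-08). LMNA, the A-type lamin, had 133 and 119.9 CPM, against 123 and 124 CPM (0.04 ± 0.06, adjusted p = 0.61), and the groups overlapped. SUN2, which links lamins to the cytoskeleton, had 114 and 113 CPM, against 71.7 and 71.8 CPM (0.66 ± 0.05). Mechanosensitive channels were higher in 6 of 12 cases and lower in 1, all by under 1 log2. PIEZO1, a stretch-activated channel, had 76.0 and 72.1 CPM, against 59.5 and 62.7 CPM (0.28 ± 0.06, adjusted p = 0.00165), and did not pass without uncompressed replicate 1 (adjusted p = 0.0613). TRPM7, a channel fused to a kinase, had 67.1 and 68.1 CPM, against 83.0 and 82.9 CPM (-0.30 ± 0.05). Of the volume regulation and osmotic response list 8 of 23 were higher and 5 lower, near the background of 24.8% and 24.5% (median 0.05). SGK1 was its largest change, and SLC5A3, the inositol transporter known from hypertonic stress, had 83.4 and 91.7 CPM, against 46.5 and 54.7 CPM (0.79 ± 0.08).

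**Figure D3:**
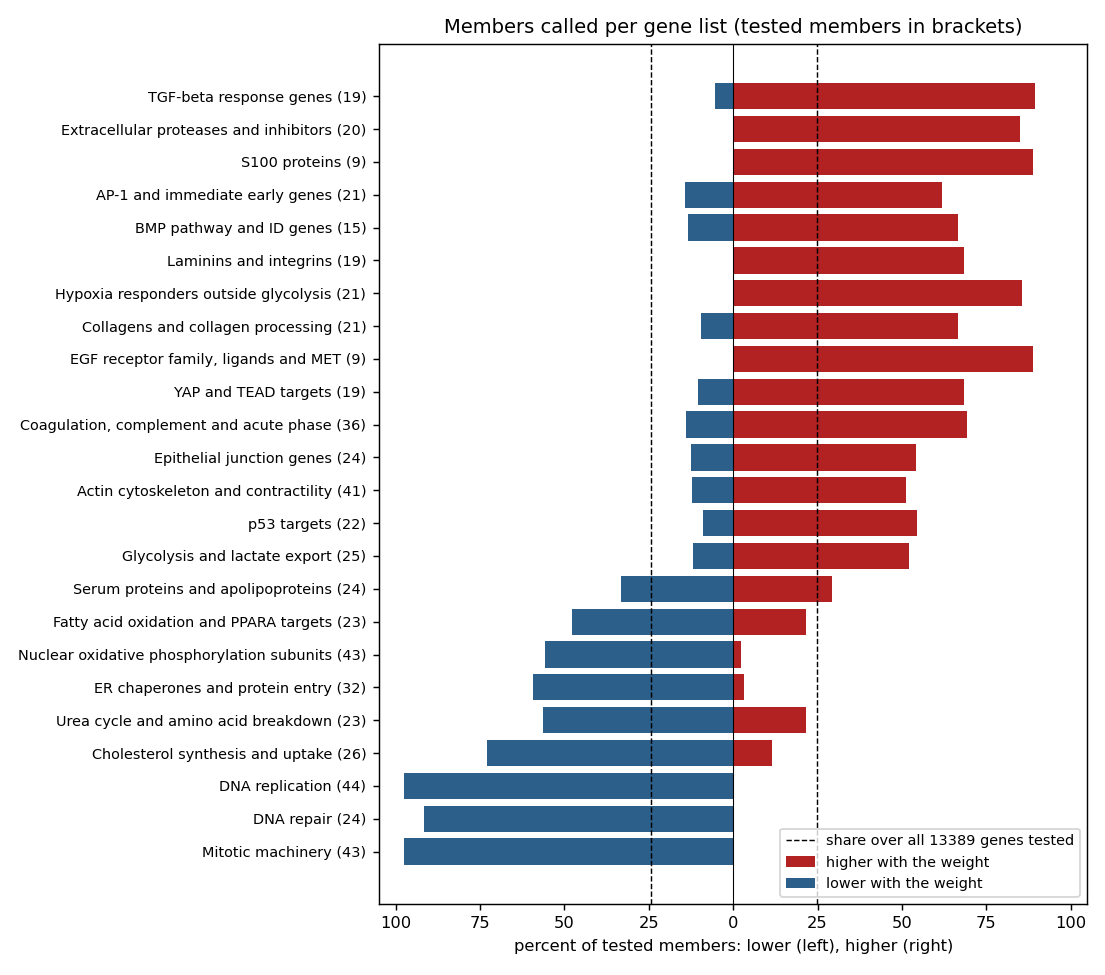
Percent of tested members of 24 of the 63 gene lists called higher (red, to the right) and lower (blue, to the left) in HepG2 under the weight against uncompressed HepG2, ordered by median log2 fold change, with tested members in brackets; dashed lines mark the shares over all 13389 genes, 24.8% higher and 24.5% lower. Among the lists drawn, TGF-beta response genes, proteases and S100 proteins lie at the top, and DNA replication, repair and mitosis at the bottom with no member higher.

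Cholesterol synthesis and uptake genes were lower in 19 of 26 cases and higher in 3 (median -0.39). HMGCS1, an early enzyme of cholesterol synthesis, had 374 and 420.4 CPM under the weight, against 642 and 622 CPM uncompressed (-0.67 ± 0.06, adjusted p = 3.40e-06). EBP, a sterol isomerase of the later steps, had 44.5 and 47.8 CPM, against 68.0 and 76.8 CPM (-0.65 ± 0.07). ACAT2, which makes acetoacetyl-CoA for the pathway, had 205 and 223 CPM, against 415 and 410.2 CPM (-0.95 ± 0.05). Each was clear of overlap, as was every called gene. Of 24 fatty acid synthesis and lipid droplet genes 11 were lower and 6 higher, beside 24.5% and 24.8% of all genes tested. GPAM, which starts triglyceride synthesis, had 101 and 115 CPM, against 219.8 and 215 CPM (-1.01 ± 0.06, adjusted p = 1.93e-07), while AGPAT2, of the next step, rose to 27.6 and 27.8 CPM, against 6.24 and 5.24 CPM (2.27 ± 0.10). Of 23 fatty acid oxidation and PPARA target genes 11 were lower and 5 higher. CPT1A, which admits fatty acids to mitochondria, had 156 and 171 CPM, against 92.9 and 90.8 CPM (0.83 ± 0.05), and EHHADH, an enzyme of fatty acid oxidation in peroxisomes, had 48.2 and 53.5 CPM, against 93.1 and 93.5 CPM (-0.88 ± 0.06). The pair moved in opposite directions. Nuclear genes for oxidative phosphorylation were lower in 24 of 43 cases and higher in 1, with a median of -0.18. ATP5F1B, the catalytic beta subunit of ATP synthase, had 447 and 444 CPM, against 643 and 647 CPM (-0.53 ± 0.04).

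ER chaperone and protein entry genes were lower in 19 of 32 cases and higher in 1 (median -0.23). The shares over all genes were 24.5% lower and 24.8% higher. SEC61A1, the channel through which proteins enter the ER, had 266 and 265 CPM under the weight, against 396 and 407 CPM uncompressed (-0.59 ± 0.04, adjusted p = 4.16e-07). SSR3, a subunit of the translocon-associated complex, had 226 and 219.9 CPM, against 390.2 and 373 CPM (-0.78 ± 0.04). HYOU1, an ER chaperone, had 202 and 202 CPM, against 318 and 319.7 CPM (-0.66 ± 0.04). HSP90B1, the chaperone with the highest CPM here, did not pass the test, at 2731 and 2685 CPM, against 2579 and 2528 CPM (0.08 ± 0.03, adjusted p = 0.0552), but it did pass as higher without weight replicate 1 (adjusted p = 0.0425) or weight replicate 2 (adjusted p = 0.006). Of 30 ATF4 and amino acid stress genes 14 were lower and 5 higher, ATF4 itself at 331 and 330.4 CPM, against 423 and 436 CPM (-0.38 ± 0.04). PSAT1, of serine synthesis, had 287 and 293 CPM, against 435 and 435 CPM (-0.58 ± 0.04). Cytosolic ribosomal protein genes were higher in 37 of 77 cases and lower in 3, all by under 0.5 log2 (median 0.11). Ribosome biogenesis genes were lower in 14 of 29 cases and higher in 1, with nucleolin (NCL) at 1043 and 987 CPM, against 1361 and 1344 CPM (-0.41 ± 0.04).

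Of 36 coagulation, complement and acute phase genes 25 were higher and 5 lower (median 0.47). C3, the central complement protein, had 9460.4 and 10735 CPM under the weight, against 3791 and 3908 CPM uncompressed (1.39 ± 0.07, adjusted p = 1.13e-04). SERPINA3, an acute phase protease inhibitor, had 45.6 and 45.7 CPM, against 8.95 and 7.80 CPM (2.45 ± 0.08). ITIH3, a heavy chain that binds hyaluronan, had 1292 and 1354 CPM, against 579 and 564 CPM (1.21 ± 0.04). All were more than 2-fold above the uncompressed level. Serum proteins and apolipoproteins split, with 7 of 24 higher and 8 lower, near the shares over all genes of 24.8% and 24.5%. APOM, which carries a sphingolipid signal on lipoproteins, had 107 and 119 CPM, against 225 and 229.6 CPM (-1.01 ± 0.05), and VTN, or vitronectin, an adhesive serum protein, had 196 and 214 CPM, against 94.2 and 100.3 CPM (1.08 ± 0.06). ALB changed by -0.31 ± 0.02 (adjusted p = 8.90e-07) and AFP, the fetal counterpart of albumin, by -0.30 ± 0.02 (adjusted p = 9.93e-07). Both were called lower by a small margin. Of 24 liver transcription factors 6 were higher and 9 lower, against 24.8% and 24.5% of all genes. HNF4A, a master regulator of hepatocyte genes, had 266 and 269 CPM, against 330.1 and 315 CPM (-0.27 ± 0.04), and CEBPD, an acute phase factor, had 22.4 and 21.6 CPM, against 10.4 and 8.57 CPM (1.21 ± 0.10).

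Urea cycle and amino acid breakdown genes were lower in 13 of 23 cases and higher in 5 (median -0.30). GNMT, which uses up surplus methyl groups, had 0.456 and 0.594 CPM under the weight, against 1.85 and 1.43 CPM uncompressed (-1.64 ± 0.32, adjusted p = 0.00109). GNMT passed the level filter through the uncompressed libraries alone. ASS1, of the urea cycle, had 27.6 and 30.3 CPM, against 43.2 and 44.6 CPM (-0.60 ± 0.07). Among bile acid genes 5 of 14 were higher and 6 lower, beside 24.8% and 24.5% of all genes tested. The transporters ABCC3 (1.53) and ABCB4 (0.62) were higher, and the synthetic enzyme AKR1D1 lower. Drug-metabolising enzymes were higher in 7 of 24 cases and lower in 10, with the extremes CYP1A1 and GSTA2 given above. Iron and copper genes were higher in 8 of 17 and lower in 6. Ceruloplasmin (CP), the copper oxidase of plasma, had 3020.2 and 3384 CPM, against 1097 and 1095 CPM (1.55 ± 0.05, adjusted p = 2.01e-08), and transferrin (TF) had 14976 and 16103 CPM, against 10085 and 10279.5 CPM (0.61 ± 0.03). FTL, the ferritin light chain that stores iron, had 1311 and 1401 CPM, against 2023 and 2051 CPM (-0.59 ± 0.04). Of 11 metallothioneins, which bind zinc and copper, and zinc transporters 3 were higher and 5 lower. MT1G had 1.56 and 1.65 CPM, against 8.09 and 8.24 CPM (-2.34 ± 0.16), and MT1F changed by -1.45, both with near-identical copies. SLC39A14, a zinc and iron importer, had 729 and 743 CPM, against 1442 and 1469.6 CPM (-0.98 ± 0.04, adjusted p = 4.54e-09).

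Death and survival genes gave no common direction, beside 24.8% higher and 24.5% lower over all genes tested. Of 12 anti-apoptotic genes 4 were higher and 2 lower, and of 27 pro-apoptotic genes 10 were higher and 7 lower (medians 0.04 and 0.12). BCL2L1, which encodes BCL-XL, had 251 and 249.8 CPM under the weight, against 172 and 176 CPM uncompressed (0.53 ± 0.04, adjusted p = 1.40e-06). BMF, a pro-apoptotic BH3-only protein, had 63.5 and 57.7 CPM, against 28.6 and 27.7 CPM (1.11 ± 0.07). MCL1 had 248 and 239.8 CPM, against 264 and 249.7 CPM (-0.07 ± 0.05, adjusted p = 0.212). An inhibitor and an activator of death thus rose together, and MCL1 did not pass. Progenitor and tumour stem markers were higher in 7 of 13 cases and lower in 2. CD24, a surface marker of progenitors, had 124 and 126 CPM, against 26.0 and 27.4 CPM (2.22 ± 0.06, adjusted p = 2.85e-10), SOX4 had 58.3 and 50.8 CPM, against 16.6 and 14.2 CPM (1.83 ± 0.09), and LIN28B, an oncofetal RNA-binding protein, had 98.2 and 100.1 CPM, against 196 and 191 CPM (-0.96 ± 0.05). LIN28B thus moved against the other pair. Interferon-stimulated and antigen presentation genes were higher in 12 of 27 cases and lower in 2, with IFITM2 at 50.0 and 50.3 CPM, against 21.1 and 21.2 CPM (1.24 ± 0.06).

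Genes known to respond to low oxygen were mostly higher, glycolytic ones less uniformly. Of 21 responders outside glycolysis 18 were higher and none lower (median 0.60), beside 24.8% and 24.5% of all genes. EGLN3, a prolyl hydroxylase that marks HIF for decay and is itself HIF-driven, had 108 and 103 CPM under the weight, against 15.2 and 13.2 CPM uncompressed (2.90 ± 0.07, adjusted p = 2.85e-10). VEGFA, which draws vessels, had 463 and 347 CPM, against 151 and 146 CPM (1.45 ± 0.19), and NDRG1 had 1249 and 1165 CPM, against 494 and 473 CPM (1.32 ± 0.05). EPO, the hormone of red cell formation, did not pass, at 16.5 and 16.8 CPM, against 15.2 and 12.9 CPM (0.24 ± 0.10, adjusted p = 0.06), though it did with a filter of 5 CPM (adjusted p = 0.037) and with a replicate block (adjusted p = 0.0492). Glycolysis and lactate export genes were higher in 13 of 25 cases and lower in 3, with a median of 0.14. PFKFB3, which raises the activator of phosphofructokinase, had 78.1 and 75.6 CPM, against 33.4 and 30.9 CPM (1.26 ± 0.06), while LDHA, lactate dehydrogenase A, was called lower at 3031 and 2928 CPM, against 3247 and 3194 CPM (-0.11 ± 0.03, adjusted p = 0.0165). Without uncompressed replicate 1 or 2 LDHA did not pass (adjusted p 0.294 and 0.18).

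The remaining lists were mixed. Of 16 matrix glycoproteins and proteoglycans 8 were higher and 2 lower, led by VCAN, or versican, a large hyaluronan-binding proteoglycan, at 91.1 and 109 CPM under the weight, against 16.2 and 19.3 CPM uncompressed (2.49 ± 0.12, adjusted p = 3.45e-05). Of 11 mesenchymal markers and factors of epithelial to mesenchymal transition 6 were higher and 3 lower. SNAI1, one of those factors, had 0.988 and 0.933 CPM, against 1.92 and 1.91 CPM (-0.99 ± 0.25; not passed in DESeq2, adjusted p = 0.0683), while TAGLN, a smooth muscle actin-binding protein, had 10.7 and 8.87 CPM, against 3.81 and 3.99 CPM (1.33 ± 0.14). The factor and the marker moved in opposite directions, and SNAI1 passed the level filter through the uncompressed libraries alone. Of 21 cytosolic heat shock chaperones 10 were lower and 5 higher, with HSPB8, a small heat shock protein, at 2.58 and 2.08 CPM, against 0.393 and 0.220 CPM (2.93 ± 0.34), which passed the filter through the weighted libraries alone, and HSP90AA1 at -0.31. Of 26 NRF2 targets and redox genes 9 were lower and 6 higher, beside 24.5% and 24.8% of all genes tested. AKR1B10, an aldo-keto reductase, had 11.1 and 10.8 CPM, against 23.3 and 23.7 CPM (-1.10 ± 0.08), and OSGIN1 had 25.1 and 23.8 CPM, against 9.66 and 10.7 CPM (1.26 ± 0.09). Lysosome and autophagy genes were higher in 14 of 30 cases and lower in 6, and Notch pathway genes higher in 3 of 8 and lower in none, with HES1, a Notch-driven repressor, at 26.9 and 27.7 CPM, against 15.7 and 15.1 CPM (0.82 ± 0.08). Some wide gaps did not pass the test: 15 genes with a change of at least 1 log2 were not called, and 14 of them had no overlap. NEAT1, the scaffold RNA of nuclear paraspeckles, chosen after its values were seen, had 168 and 105 CPM under the weight, against 41.3 and 34.1 CPM uncompressed (1.86 ± 0.37, adjusted p = 0.0614). It passed as higher in DESeq2 (adjusted p = 2.34e-06) and without weight replicate 1 (adjusted p = 6.01e-14) or weight replicate 2 (adjusted p = 2.63e-26).

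The same weight comparison in Hep3B shows where HepG2 differed. The difference of the effects, HepG2 minus Hep3B, was tested over the 8 transwell libraries of both lines, and 3916 of 15114 genes passed (25.9%), 1967 with a greater and 1949 with a lower log2 change in HepG2. In that fit 6697 of all 15114 genes were called in HepG2 and 2673 of all 15114 in Hep3B. Both lines called 1645 genes. That is 24.6% of the HepG2 genes, beside 2673 of 15114 over all genes, and 61.5% of the Hep3B genes, beside 6697 of 15114. Of the 1645, 1253 moved the same way while 392 moved in opposite ways. Across all 15114 genes the effects correlated at a Pearson r of 0.232. No library is shared between the lines. The count table heads the uncompressed Hep3B columns as Hep3B controls, and they were taken as uncompressed because the labels hold no other Hep3B group without weight or polyethylene glycol, so the differences rest on that match. In what follows levels are CPM scaled over the 8 libraries, and the effects of both lines are from this 8-library fit.

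The fall of mitotic genes was much smaller in Hep3B. Of 43 mitotic genes 41 differed between the lines, all with the lower change in HepG2, and their median log2 fold change in Hep3B was 0.01. For PLK1 the HepG2 change was -1.08 ± 0.06 and the Hep3B change -0.05 ± 0.06 (difference -1.03 ± 0.09, adjusted p = 7.53e-08). Of 44 DNA replication genes 38 differed, all with the lower change in HepG2. In Hep3B their median was -0.14, with 13 called lower and 0 higher, beside 2673 of 15114 genes called there in either direction. Cholesterol genes differed in 22 of 27 cases, 21 of them lower in HepG2, with a Hep3B median of 0.25. HMGCS1 changed by -0.67 ± 0.06 in HepG2 and by 0.31 ± 0.05 in Hep3B (difference -0.98 ± 0.08, adjusted p = 4.38e-08). ER genes differed in 25 of 32 cases, all lower in HepG2 (Hep3B median 0.16). The mitotic, cholesterol and ER lists fell in HepG2 and had medians near or above 0 in Hep3B. In glycolysis 18 of 25 genes differed, 17 of them lower in HepG2, and the Hep3B median was 1.06. LDHA changed by -0.11 ± 0.10 in HepG2 and by 1.59 ± 0.10 in Hep3B (difference -1.71 ± 0.14, adjusted p = 1.27e-04). Hypoxia responders outside glycolysis had a Hep3B median of 1.37, and 11 of 22 had a lower change in HepG2 while 3 had a greater one. EGLN3 was among the greater ones (2.90 ± 0.08 in HepG2, 0.49 ± 0.10 in Hep3B, difference adjusted p = 4.72e-10). Coagulation and complement genes differed in 24 of 37 cases, 21 of them greater in HepG2 (Hep3B median 0.06), with C3 at 1.39 ± 0.06 in HepG2 and -0.06 ± 0.06 in Hep3B (difference 1.45 ± 0.09, adjusted p = 3.12e-08). Keratins differed in 5 of 6 cases, KRT19 at 1.76 ± 0.05 in HepG2 and -0.54 ± 0.05 in Hep3B (difference 2.30 ± 0.07, adjusted p = 4.24e-13). Ribosomal protein genes differed in only 1 of 77 cases, beside 25.9% of all genes in that fit.

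**Figure D4:**
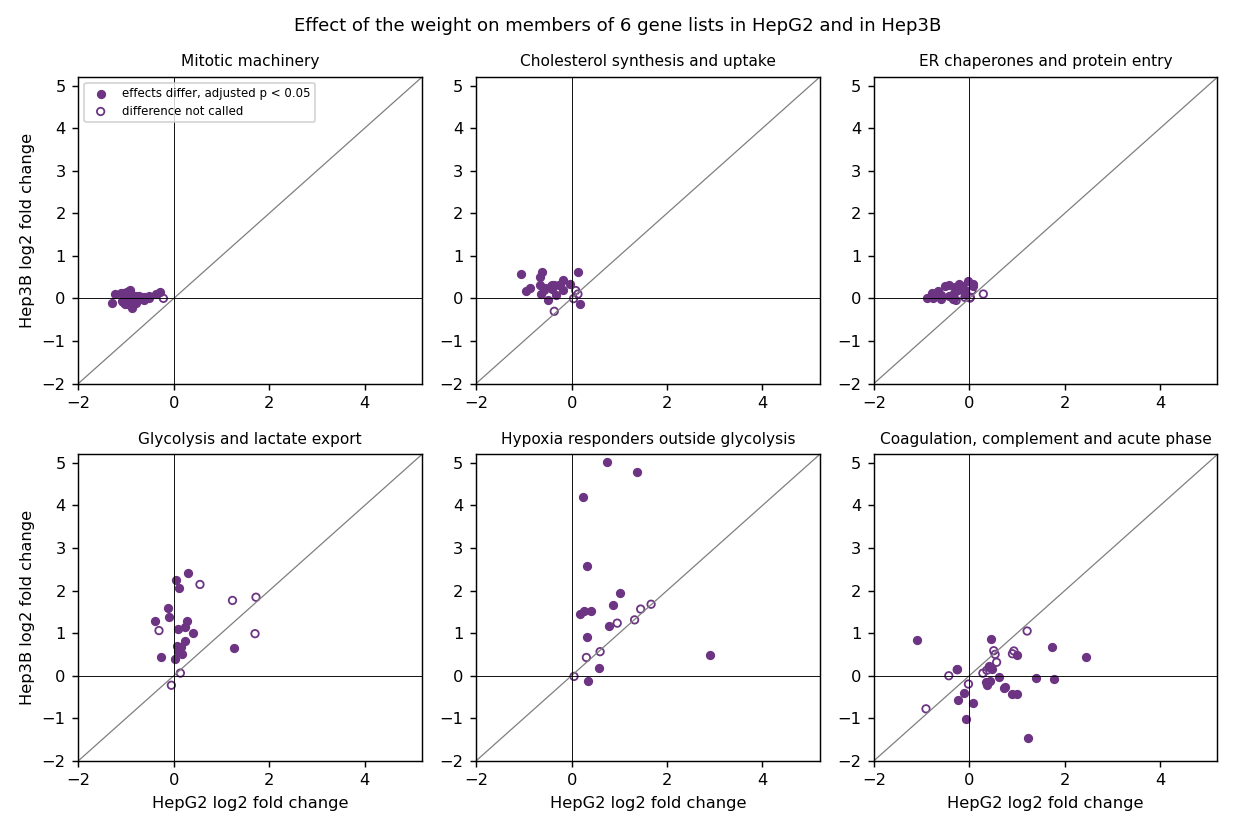
Log2 fold change with the weight in HepG2 (x axis, 4-library fit) and in Hep3B (y axis, 8-library fit) for the members of 6 gene lists; filled points are genes whose effects differ between the lines at an adjusted p under 0.05, open points are the rest, and the grey diagonal marks equal effects. Most mitotic, cholesterol and ER genes lie left of 0 in HepG2 and near or above 0 in Hep3B, and most glycolysis and hypoxia genes lie above the diagonal.

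Of the 12 largest rises in HepG2, 11 differed from Hep3B, where 8 were called higher and 2 lower. Of the 12 largest falls, 10 differed, and in Hep3B 4 were called lower and none higher. Over all genes in that fit 25.9% differed. Both sets were picked for large changes in the same HepG2 libraries that enter this test, so the choice itself favoured a difference. The extreme differences had the following levels. RND3, a small GTP-binding protein that loosens stress fibres, had 2.55 and 3.24 CPM in weighted HepG2, against 0.0440 and 0.123 CPM in uncompressed HepG2, and 70.4 and 67.7 CPM in weighted Hep3B, against 76.2 and 80.4 CPM in uncompressed Hep3B. UCA1 had 10.5 and 10.9 CPM, against 0.836 and 0.698 CPM in HepG2, and 7.91 and 7.73 CPM, against 16.01 and 18.2 CPM in Hep3B, and its directions were opposite. Uncompressed HepG2 lay far below Hep3B in both genes. IGFBP1, a liver IGF-binding protein, had 3707 and 3954 CPM, against 4125 and 4094 CPM in HepG2, and 12.1 and 19.6 CPM, against 0.625 and 0.659 CPM in Hep3B. CA9, a hypoxia-induced carbonic anhydrase, had 89.3 and 75.9 CPM, against 32.8 and 31.3 CPM in HepG2, and 25.01 and 39.5 CPM, against 1.25 and 1.07 CPM in Hep3B. The difference for CA9 did not pass without uncompressed Hep3B replicate 1 or 2 (adjusted p 0.0538 and 0.0587). For IGFBP1 uncompressed HepG2 lay above weighted Hep3B, and for CA9 it lay between the weighted Hep3B libraries. Among the widest differences by rule, SAMD11, LYPD1, CACNA2D4 and CYP24A1 had 3 or fewer counts in at least 1 of the 4 groups, so no difference of folds is given for them. CYP24A1, for example, had 3 counts over both weighted and 7 over both uncompressed Hep3B libraries.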

How the data were processed

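The deposited table held raw read counts per gene for 14 libraries, with Ensembl gene IDs and names, and the authors' counts were used as deposited. The submitters' processing notes list STAR, DESeq2 and the build GRCh38 (hg38), with neither versions nor roles, and the labels' protocols give RNeasy extraction and paired reads. Counting tool, annotation and strand setting were not given. Whether a library ran on HiSeq or NovaSeq was not assigned, and its part in the results was not tested.

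Genes with at least 1 CPM in 2 of the 4 HepG2 transwell libraries were fitted with edgeR 4.0.16 (R 4.3.3; robust quasi-likelihood test, TMM scaling, Benjamini-Hochberg adjustment over all genes tested, threshold 0.05). The difference from Hep3B was fitted over 8 libraries by the same test with the same filter over those 8. Printed levels are CPM from TMM-scaled library sizes. Fold changes are log2, weight over uncompressed, and errors are standard errors. Code was tested on simulated data. Named genes were the 12 largest rises and falls among called genes averaging at least 5 CPM, up to 6 called members of each list with the largest absolute change, its 3 members of highest CPM, the cell type markers, and the 6 widest differences from Hep3B in each direction; exceptions are marked, and a few genes that this rule selects are left out of the text. Genes with 3 or fewer counts in a group are given as counts with exact 95% intervals, which cover counting error only. The members and lists were chosen with earlier results of these data known. Alternatives were other scalings, filters, DESeq2 1.42.0, other libraries in the fit, and each replicate left out. Gene coordinates are from GENCODE 29 (GRCh38) and promoters from RefSeq (GRCh38.p14). Gene names may share reads where they overlap or are near-identical, which was not resolved.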

Additional observations from a re-analysis of the deposited data

Results flagged for a closer look

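For 7 of the genes with the widest differences between the lines, the effect of the weight in HepG2 differed from that in Hep3B in edgeR's quasi-likelihood test of the difference itself, and these are singled out for a second look. The difference of log2 fold changes, HepG2 minus Hep3B, was 5.18 for RND3 (adjusted p = 1.17e-08) and 4.92 for UCA1 (adjusted p = 4.23e-11), both greater in HepG2. In both genes the HepG2 libraries rose with the weight and the Hep3B libraries did not. The difference was -2.66 for the urate transporter SLC2A9 (adjusted p = 0.00199), -3.42 for CA9 (adjusted p = 0.0088) and -3.95 for the secreted glycoprotein ANGPTL2 (adjusted p = 0.00341). For EPO it was -3.96 (adjusted p = 6.63e-08) and for IGFBP1 -4.71 (adjusted p = 0.00262). The CA9 difference did not pass without uncompressed Hep3B replicate 1 or 2 (adjusted p 0.0538 and 0.0587). The SLC2A9 difference was -4.11 without uncompressed Hep3B replicate 1. In Hep3B all 5 of these were higher under the weight than without it, and ANGPTL2 changed by 1.44 ± 0.16 in HepG2 and 5.39 ± 0.46 in Hep3B. SLC2A9 rested on 26 counts in weighted and 6 counts in uncompressed Hep3B, and RND3 on 128 counts in weighted and 4 counts in uncompressed HepG2, each over 2 libraries. With 2 libraries per group no single library could be tested as standing apart.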

How the results depend on the processing

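CDKN1B and CDKN2C were not carried through the alternatives and are left out of what follows. No other gene called and named changed direction under any alternative. More genes were called lower than higher, unlike in the reported fit, with total counts only (3036 higher, 3631 lower, median log2 fold change of all genes -0.0267), with 10 transwell libraries in the fit (3286 higher, 3459 lower) and without weight replicate 1 (3224 higher, 3252 lower). Counts of list members called moved by over 1.5 times in 340 of the recomputations and stayed within that in 1424, most of the moves in the test against 1 log2 (108), with all 14 libraries (96) and without an uncompressed library (38 and 37). With all 14 libraries of the series in the fit, 1836 genes were called, 1045 higher and 791 lower. When the change had to exceed 1 log2 in the test itself, 380 genes passed, 343 higher and 37 lower, against 933 called with an estimate of at least 1 log2. That last count was 1534 with no filter beyond 1 count, which tests more genes of low level, and 457 with a filter of 5 CPM, which tests fewer. DESeq2 called 4753 genes. Leaving out each library in turn gave 3968 to 7023 genes changed, 2007 to 3547 higher, 1881 to 3476 lower, 871 to 1041 of at least 1 log2, and 2939 to 3958 that differed between HepG2 and Hep3B. The lowest counts came without an uncompressed library, and the lone sample left was assumed to vary like the weighted pair. The replicate numbers are shared between states, but the deviations of same-numbered libraries correlated at 0.241, with only 2 pairs, so they were not taken to pair the samples; with a replicate block 7211 genes were called, 3611 higher and 3600 lower, 944 of at least 1 log2, and 4169 differed between the lines. For the genes named, the test against 1 log2 lost 75 calls and the fit of all 14 libraries lost 35, those of ACTA2, AFP, ALB, ASS1, ATF4, ATP5F1B, BCL2L1, CCL20, CCN2, COL18A1, DPEP1, DUSP8, FTL, GREM1, HAMP, HNF4A, HSP90AA1, IER3, ITGB1, KRT8, KRT18, LDHA, MDM2, MT1F, NCL, NOTUM, PIEZO1, SLC5A3, SNAI1, SUN2, TAGLN, TGFB1, TRPM7, VTN and WWTR1. DESeq2 lost those of GREM1, KRT18, LDHA, MDM2 and SNAI1, a filter of 5 CPM those of IER3, LDHA and MDM2, no filter beyond 1 count those of IGF2 and KRT18, 10 transwell libraries those of KRT18 and LDHA, and total counts that of KRT18. Leaving out a library lost those of CCN2, GREM1, IER3, KRT8, KRT18, LDHA, MDM2 and PIEZO1, given beside them, and that of the CA9 difference. HSP90B1 and NEAT1 gained a call without either weighted library. Beside block calls for EPO, HSP90B1, MKI67 and NEAT1, the block changed no other named gene's call. The cause was not tested. Depth limited genes near 1 CPM, which rest on about 25 counts per library.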

Other observations

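Among the promoters read for all tested genes, the AP-1 letters TGANTCA stood in 4.96% of 2460 genes called higher under the weight, in 3.03% of 2671 called lower and in 3.39% of 4748 not called. The CHR letters TTTGAA stood in 7.93% of the higher, 10.3% of the lower and 7.62% of the genes not called. The TEAD letters CATTCC stood in 9.02% of the higher, 9.58% of the lower and 9.31% of the genes not called. These shares are descriptions of letters in the 250 bases upstream of each start and carry no test. Of the genes with 3 or fewer counts in 1 state, FXYD5, a regulator of the sodium pump that lowers cell adhesion, had 98 counts over both weighted libraries, against 1 over both uncompressed ones, a ratio of 104 (exact 95% interval 18.2 to 4140). CFAP57, a protein of motile cilia, had 60 counts over both weighted libraries, against 2 over both uncompressed ones, a ratio of 31.7 (exact 95% interval 8.41 to 268). Both were named because their counts did not allow a fold change.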
